A study of Rattus norvegicus with 15 samples.

Results

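A set of 9 transcription factors known from hepatocytes was followed through rat liver cirrhosis and its treatment with eplerenone: the forkhead factors Foxa1, Foxa2 and Foxa3, the C/EBP factors Cebpa and Cebpb, the cut-homeodomain factor Onecut1 (HNF6), the homeodomain factor Prox1, and the bZIP factors Creb3l3 (CREBH) and Atf5. They were chosen by name, as the rows of the deposited count table with these 9 gene symbols, and make up 9 of the 32623 genes listed. All 9 are annotated as protein coding, carried enough reads for the test, and are among the 13628 protein coding genes tested. No measured value entered the choice of the genes, although earlier results of these data were known when they were proposed.

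FOXA proteins open compacted chromatin at liver enhancers, and other factors then bind there. C/EBP alpha drives the metabolic genes of the resting hepatocyte, and C/EBP beta drives the acute phase response and the regenerating liver. HNF6 acts in bile duct formation and glucose metabolism, PROX1 is needed for hepatocyte migration in the embryo and restrains bile acid synthesis in the adult, CREBH is a membrane-bound factor that is cut free by the site-1 and site-2 proteases and induces apolipoprotein genes, and ATF5 answers mitochondrial and amino acid stress.

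Male Wistar rats inhaled carbon tetrachloride (CCl4), a liver toxin, for 12 weeks and drank phenobarbital at 0.35 g/L, which raises the enzymes that activate CCl4 (cirrhosis, n = 5). A further 5 rats received the same and, from week 8, eplerenone at 100 mg/kg, which blocks the mineralocorticoid receptor (cirrhosis & eplerenone, n = 5). Control rats were left untreated (n = 4, replicates 2 to 5; control replicate 1 was not analysed here). Poly(A) RNA of whole liver was sequenced, and reads were counted per gene. The rats were a subset that the study picked by how well the induction of cirrhosis or the eplerenone treatment had worked, which limits how far the groups stand for all treated rats, and cirrhosis here means the CCl4 and phenobarbital model in males.

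The libraries held 16157491 to 21574767 counted reads. Levels are given as FPM, the unit of fragments scaled to library size, here after TMM, where 3 reads correspond to 0.121 to 0.191 FPM. FPM is not divided by transcript length, so levels are compared between groups and not between genes. On the first principal component of the 500 most variable genes, 2 libraries stood apart from their groups. Cirrhosis replicate 5 lay at 13.03 against -47.7 to -38.0 for the other cirrhosis rats, and cirrhosis & eplerenone replicate 3 lay at -42.6 against -18.5 to 26.8. Calls of the factors and of the gene lists are therefore also given without these 2 libraries, at 4 rats per group, an alternative chosen with their position known. Each of the 2 lay among the values of the other CCl4 group. Leaving both out therefore widens the difference between the CCl4 groups on this component by the choice of rats. Cirrhosis replicate 5 was also the cirrhosis rat nearest to the controls, which lay at 44.3 to 50.6. Leaving it out widens cirrhosis against control on this component in the same way. The tissue was liver by its markers, since 9 hepatocyte genes summed to 122486 to 226428 FPM in every library. Animal labels of the CCl4 rats begin with 15 or 20 and those of controls with 13 or 16. What the number stands for is not given, and it cannot be told apart from CCl4 exposure.

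A gene was called when its Benjamini-Hochberg FDR over all genes tested was below 0.05 in edgeR's quasi-likelihood test and in DESeq2. In cirrhosis against control, 3 of the 9 factors were called. Foxa3 rose, and Foxa2 and Prox1 fell. Over all protein coding genes 20.6% were called in this comparison, 13.8% as higher and 6.72% as lower, so 1 of 9 higher and 2 of 9 lower stand against that background. Foxa3 and Prox1 were also the 2 factors whose control and cirrhosis rats did not overlap in FPM, which held for 20.5% of all protein coding genes. The median log2 fold change of the 9 factors was -0.69, against -0.01 over all protein coding genes. At 4 rats per group 5 of the 9 factors were called, with Foxa1 and Atf5 in addition, both lower. Of all protein coding genes 34.6% were called at that setting. Cirrhosis replicate 5, left out there, was the highest cirrhosis rat for Foxa1 and for Atf5, so these added calls depend on the choice of rats.

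Between cirrhosis and cirrhosis & eplerenone, no factor was called by edgeR, none had an unadjusted edgeR p below 0.05, and DESeq2 called none and gave 1 unadjusted p below 0.05, that of Onecut1. Across all protein coding genes 0.0147% were called and 0.947% had groups that did not overlap, and none of the factors was apart. All 9 log2 fold changes were above 0, although that of Foxa3 was 0.01 and turned to -0.01 with DESeq2, with a median of 0.35 against 0.01 over all protein coding genes. Libraries are shared by the 9 values, so this is a description of these rats. At 4 rats per group 1 of the 9 factors, Cebpa, was called (higher with eplerenone), where 9.22% of all protein coding genes were called, so the share of factors was near the background.

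Between control and cirrhosis & eplerenone, no factor was called by both tools. EdgeR gave 2 unadjusted p-values below 0.05, for Foxa2 and Foxa3, and DESeq2 alone called 1, Foxa3. Over all protein coding genes 5.33% were called. Foxa3 was the 1 factor without overlap, a state reached by 11.1% of protein coding genes. The median of the factors was -0.30 against 0.01. At 4 rats per group none was called by both tools, against 4.94% of protein coding genes. This comparison shares its controls with the first and its eplerenone rats with the second.

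**Figure D1:**
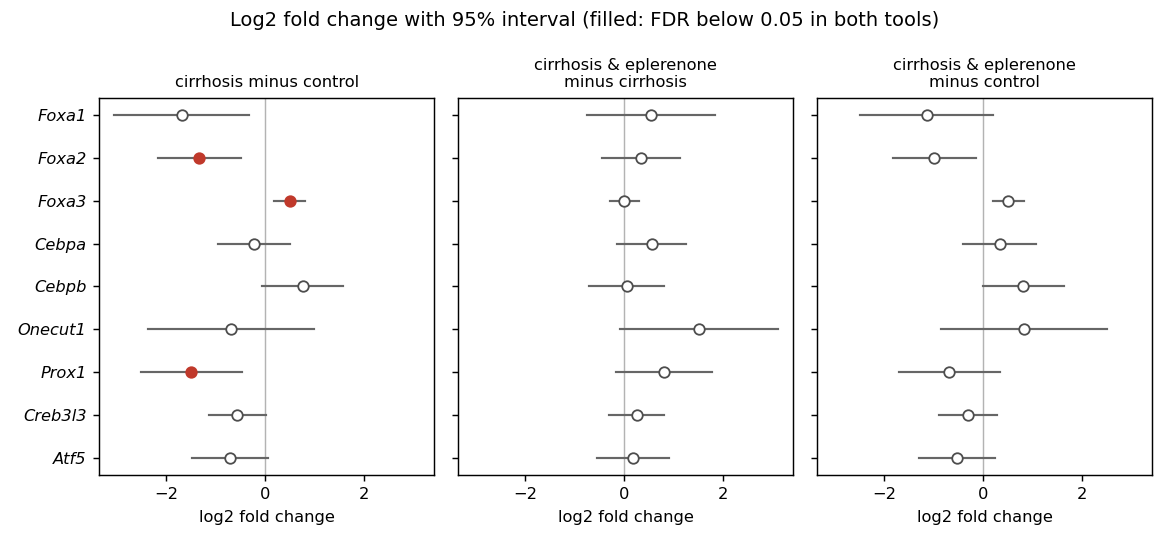
Log2 fold change of each factor (points) with its 95% interval (lines) from edgeR in the 3 comparisons; filled points were called in both tools. In cirrhosis against control the intervals of Foxa1 (open), Foxa2 and Prox1 lie below 0 and that of Foxa3 above 0, and none of the 9 points is filled in the other 2 panels.

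Bulk liver was measured, so fewer hepatocytes and less RNA of a factor per hepatocyte cannot be told apart. None of the 9 hepatocyte markers tested was called in cirrhosis against control by both tools, with 4 unadjusted edgeR p-values below 0.05. DESeq2 alone called 4 of them, Apob, Fgb and Ttr lower and Tf higher. It called 3847 of the 13628 protein coding genes. The sum of the 9 was 194965 to 226428 FPM over the controls, 157235 to 212516 over the cirrhosis rats and 122486 to 217539 over the eplerenone rats. Alb and Tf, the largest of the 9, differed in opposite directions. Alb averaged 122722 FPM in control and 79343 in cirrhosis, and Tf 32551 and 48849. The sum therefore does not show the changes of single markers. Markers of other cells moved with the disease, where 13.8% of all protein coding genes were called higher and 6.72% lower. All 6 cholangiocyte markers rose, their sum lying at 14.4 to 23.6 FPM over the controls and at 46.4 to 142 over the cirrhosis rats. Of the stellate cell and myofibroblast markers 4 of 5 rose, of neutrophil markers 3 of 3, of lymphocyte markers 4 of 6 and of lymphatic endothelium markers 3 of 5, and of 7 macrophage markers Cd163 fell. No marker in any list was called between cirrhosis and cirrhosis & eplerenone by either tool, and 1 stellate cell and 1 macrophage marker had an unadjusted edgeR p below 0.05. At 4 rats per group Alb, Apob and Ttr were called lower and Tf higher in cirrhosis among the hepatocyte markers, the macrophage markers Cd68, Csf1r and Itgam were called higher, and 5 of 5 stellate cell and 5 of 6 lymphocyte markers were higher. At that setting, with eplerenone against cirrhosis Acta2, Des, Ccl21 and Pdpn were called lower and Cd163 higher. Of all protein coding genes 34.6% were called there in cirrhosis against control and 9.22% with eplerenone against cirrhosis. The choice of rats widens both of these comparisons on the first principal component. The part of these cells in the levels of the 9 factors was not tested.

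Foxa1 (ENSRNOG00000009284, chromosome 6) encodes FOXA1, which shares its DNA motif with FOXA2 and FOXA3. In control rats 2, 3, 4 and 5 it stood at 32.6, 17.3, 11.8 and 27.7 FPM. Cirrhosis rats 1 to 5 had 1.00, 6.85, 2.21, 3.64 and 21.2 FPM, and cirrhosis & eplerenone rats 1 to 5 had 8.27, 16.6, 6.59, 13.5 and 5.90 FPM. In all, 4 of 5 cirrhosis rats lay below every control, and replicate 5, the library that stood apart, lay among the controls. The mean was 22.3 ± 9.51 FPM (SD, n = 4) in control, 6.97 ± 8.23 (n = 5) in cirrhosis and 10.2 ± 4.68 (n = 5) with eplerenone. The log2 fold change in cirrhosis was -1.68 (SE 0.64), with an FDR of 0.0718 in edgeR and 0.0293 in DESeq2, so it was not called. Without cirrhosis replicate 5 alone it was -2.69 with an edgeR FDR of 0.00215, and Foxa1 was called. Over all alternatives the edgeR FDR ran from 0.00200 to 0.157.

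Foxa2 (ENSRNOG00000013133, chromosome 3) encodes FOXA2, which in hepatocytes takes part in fasting metabolism and bile acid handling. Control rats 2 to 5 had 83.5, 17.2, 28.9 and 61.8 FPM. The cirrhosis rats had 12.0, 26.0, 19.2, 19.4 and 18.5 FPM, and the eplerenone rats 19.7, 43.1, 16.5, 17.8 and 24.3 FPM. Controls 2 and 5 were the 2 highest of all 14 rats, while control 3 lay within the range of the cirrhosis rats, so the groups overlapped. The spread was far wider in control (47.9 ± 30.4 FPM, n = 4) than in cirrhosis (19.0 ± 4.94, n = 5), and the eplerenone mean was 24.3 ± 10.9 (n = 5). Foxa2 fell in cirrhosis by 1.33 on the log2 scale (SE 0.39, 95% interval -2.17 to -0.49), with an edgeR FDR of 0.0298 and a DESeq2 FDR of 0.00912. It was -1.30 with an edgeR FDR of 0.0335 at 4 rats per group. The call held in 9 of 14 edgeR and DESeq2 fits that each left out 1 rat. It was lost without cirrhosis replicate 1, 3 or 4 (log2 fold changes of -1.18, -1.33 and -1.32) and without control replicate 2 (-0.92) or 5 (-1.19), and its edgeR FDR over all alternatives ran from 0.0135 to 0.110. With eplerenone against control the difference was -0.98 (SE 0.39, edgeR FDR 0.164).

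Foxa3 (ENSRNOG00000014256, chromosome 1) encodes FOXA3, which helps keep glucose output in fasting. The 4 controls, in the order of replicates 2 to 5, had 33.5, 47.3, 48.9 and 41.7 FPM. In cirrhosis rats 1 to 5 it was at 56.0, 56.2, 69.4, 63.1 and 58.5 FPM, and the eplerenone rats 58.8, 55.2, 56.9, 62.3 and 71.6 FPM. Every one of the 10 CCl4 rats lay above every control. The mean was 42.8 ± 6.97 FPM (n = 4) in control, 60.6 ± 5.68 (n = 5) in cirrhosis and 61.0 ± 6.52 (n = 5) with eplerenone. Foxa3 rose 1.42-fold in cirrhosis, a log2 fold change of 0.50 (SE 0.15, 95% interval 0.19 to 0.81), with an FDR of 0.0282 in edgeR and 0.00398 in DESeq2. It was 0.54 with an edgeR FDR of 0.0200 at 4 rats per group. The call was lost in 3 of 14 fits, without cirrhosis replicate 3 (0.45) and without control replicate 2 (0.40) or 5 (0.48), and the edgeR FDR over all alternatives ran from 0.00590 to 0.0866.

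With eplerenone against control Foxa3 differed by 0.51 (SE 0.15), of which the edgeR FDR was 0.0572 and the DESeq2 FDR 0.0104. Between the CCl4 groups the difference was 0.01, with a 95% interval of -0.28 to 0.30. The rise of 0.50 in cirrhosis had its own interval of 0.19 to 0.81, and both differences share the cirrhosis rats. The 2 intervals therefore do not bound a change with eplerenone to less than the rise. With scaling by total counts Foxa3 was 0.79 in cirrhosis and 0.82 with eplerenone against control. That scaling moves the median of all protein coding genes to 0.28 and 0.32, so these 2 larger values hold a shift common to all genes.

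In cirrhosis, then, Foxa2 and Foxa3 were called in opposite directions. Within each rat, counts of Foxa3 divided by those of Foxa2 were 0.401, 2.75, 1.69 and 0.674 in control rats 2 to 5, ran from 2.16 to 4.65 in cirrhosis and from 1.28 to 3.50 with eplerenone. All 5 cirrhosis rats were above 3 of the 4 controls, and control 3 lay inside their range. The mean log2 ratio differed by 1.63 between cirrhosis (1.71 ± 0.40, SD, n = 5) and control (0.08 ± 1.26, n = 4), with a two-sided exact permutation p of 0.0317 and an adjusted p of 0.143 over the 9 ratio tests, so it did not pass the correction. The smallest p that 4 against 5 rats allow is 0.00794. For Foxa1 over Foxa2 the difference was -1.21, with an exact permutation p of 0.175 and an adjusted p of 0.314. Between the CCl4 groups the ratios differed by -0.29 for Foxa3 over Foxa2 and 0.88 for Foxa1 over Foxa2, with exact permutation p-values of 0.444 and 0.230.

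**Figure D2:**
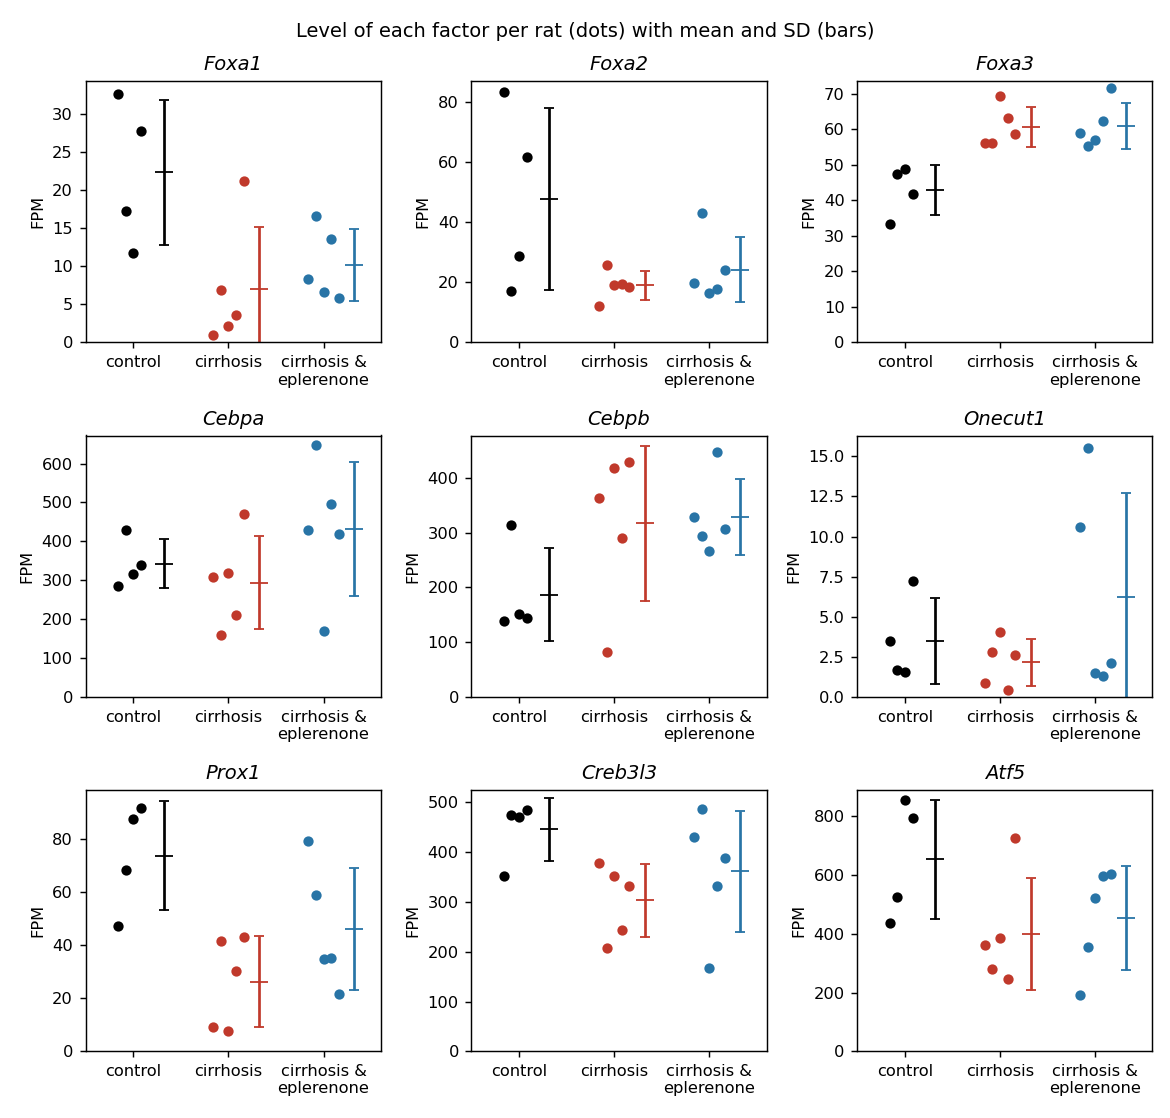
FPM of each factor in each rat (dots) with the group mean and SD (bars; an SD that reaches below 0 is drawn to 0), on a linear axis from 0. The 5 cirrhosis and 5 eplerenone rats lie above all 4 controls for Foxa3, all 5 cirrhosis rats lie below all controls for Prox1, and Foxa2 shows 2 high and 2 low controls.

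The promoters of Foxa2 and Foxa3 are shown because these were the FOXA genes called in opposite directions. Of the 9 factors, 6 matched an entry in the RefSeq promoter table of assembly GRCr8: Foxa2, Foxa3, Cebpa, Cebpb, Creb3l3 and Atf5. The counts were made on the rn6 build, so these coordinates hold for GRCr8 only. Each is the 250 bases before the annotated start, 5′ to 3′ on the gene's strand, for Foxa2 on chromosome 3, 155927509 to 155927758, and for Foxa3 on chromosome 1, 87799486 to 87799735, both on the minus strand. Capitals mark the letters TATAAA on either strand and, in Foxa2, ATTGAT, the core of the HNF6 motif.
Foxa2: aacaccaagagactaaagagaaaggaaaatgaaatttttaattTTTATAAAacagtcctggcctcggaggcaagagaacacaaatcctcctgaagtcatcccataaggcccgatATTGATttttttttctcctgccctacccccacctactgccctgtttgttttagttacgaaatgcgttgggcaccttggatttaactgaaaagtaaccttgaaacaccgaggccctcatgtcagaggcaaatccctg
Foxa3: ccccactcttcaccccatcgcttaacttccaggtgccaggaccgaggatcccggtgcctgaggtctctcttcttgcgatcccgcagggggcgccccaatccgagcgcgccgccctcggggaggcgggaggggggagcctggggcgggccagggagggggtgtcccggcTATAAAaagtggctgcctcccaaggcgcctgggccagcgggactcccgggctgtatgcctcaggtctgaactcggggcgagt

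In Foxa3 the letters TATAAA stood 82 to 77 bases before the start. In Foxa2 they stood on both strands, overlapping, 207 to 200 bases before it, and ATTGAT stood 136 to 131 bases before the start. TATAAA was found on either strand in 4 of the 6 matched promoters, those of Foxa2, Foxa3, Cebpa and Cebpb, and in 12.9% of all 33469 promoters of this length. ATTGAT was found in 1 of 6 and in 7.10% of all. The forkhead motifs TGTTTAC (3.21% of all promoters) and TATTTAC (3.04%), the C/EBP palindrome TTGCGCAA (0.140%) and the cAMP response element TGACGTCA (1.59%) were in none of the 6. Only these exact letters were searched, so other forms of a motif may be present in a window. The Foxa3 window held 69.6% G or C and the Foxa2 window 42.8%. These matches are descriptions of letters in the window.

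Cebpa (ENSRNOG00000010918, chromosome 1) encodes C/EBP alpha. Its levels in control rats 2 to 5 were 284, 430, 315 and 339 FPM. Cirrhosis rats 1 to 5 were at 309, 159, 319, 210 and 469 FPM, and the eplerenone rats 429, 648, 169, 497 and 418 FPM. Cirrhosis replicate 5 and eplerenone replicate 3, the libraries that stood apart, were the highest and the lowest of their groups. The mean was 342 ± 62.9 FPM (n = 4) in control, 293 ± 119 (n = 5) in cirrhosis and 432 ± 173 (n = 5) with eplerenone. The log2 fold change in cirrhosis was -0.22 (SE 0.34, edgeR FDR 0.651), and it turned to 0.03 with total counts. With eplerenone against cirrhosis it was 0.56 (SE 0.32, 95% interval -0.13 to 1.25, edgeR FDR 0.406). Without the 2 libraries that stood apart it was 0.98 with an edgeR FDR of 0.0313, and Cebpa was called higher with eplerenone. Leaving out the highest cirrhosis and the lowest eplerenone value widens the difference by itself, so that call depends on the choice of rats. The FDR ran from 0.0313 to 0.698 over all alternatives, and no fit that left out 1 rat called the difference.

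Cebpb (ENSRNOG00000057347, chromosome 3) encodes C/EBP beta. Levels in the controls (replicates 2 to 5) were 139, 313, 152 and 144 FPM. The 5 rats with cirrhosis had 364, 83.0, 418, 290 and 430 FPM, and the eplerenone rats 329, 294, 266, 447 and 306 FPM. Control 3 stood far above the other controls, and cirrhosis replicate 2 was the lowest of all 14 rats, while the other 9 CCl4 rats lay above the other 3 controls. The mean was 187 ± 84.4 FPM (n = 4) in control, 317 ± 142 (n = 5) in cirrhosis and 329 ± 70.02 (n = 5) with eplerenone. The log2 fold change in cirrhosis was 0.76 (SE 0.38, 95% interval -0.06 to 1.58, edgeR FDR 0.162), and with eplerenone against control it was 0.81 (SE 0.39, FDR 0.248). Without cirrhosis replicate 2 the value in cirrhosis was 1.01 with an edgeR FDR of 0.0240, and Cebpb was called; over all alternatives the FDR ran from 0.0240 to 0.323.

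Counts of Cebpa divided by those of Cebpb in the same rat were 2.05, 1.37, 2.08 and 2.36 in control rats 2 to 5. They were 0.850, 1.91, 0.765, 0.726 and 1.09 in the cirrhosis rats and 1.30, 2.20, 0.636, 1.11 and 1.37 in the eplerenone rats. All controls were above 4 of the 5 cirrhosis rats, with cirrhosis replicate 2 inside the control range. The mean log2 ratio was lower by 0.95 in cirrhosis (difference -0.95; 0.00 ± 0.57 against 0.95 ± 0.34 in control), with a two-sided exact permutation p of 0.0317 and an adjusted p of 0.143. With eplerenone it was 0.29 ± 0.64 (n = 5), a difference of 0.30 from cirrhosis with an exact permutation p of 0.452.

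**Figure D3:**
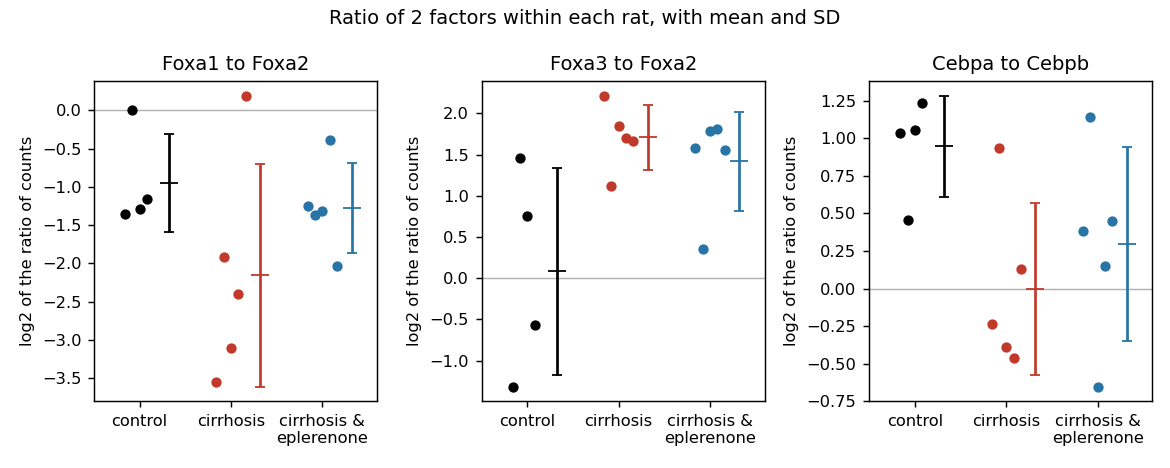
Log2 of the ratio of counts of 2 factors within each rat (dots) with the group mean and SD (bars). For Foxa3 to Foxa2 the cirrhosis rats lie between 1.11 and 2.22 and the controls between -1.32 and 1.46; for Cebpa to Cebpb 4 of 5 cirrhosis rats lie below the lowest control at 0.46.

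Onecut1 (ENSRNOG00000008095, chromosome 8) encodes HNF6 and was close to the limit of the counting, with 8 reads in the lowest library. Among controls 2 to 5 it was counted at 3.50, 1.68, 1.53 and 7.25 FPM. Livers with cirrhosis had 0.89, 2.81, 4.04, 0.41 and 2.62 FPM, and the eplerenone rats 10.6, 15.5, 1.497, 1.30 and 2.13 FPM. Eplerenone rats 1 and 2 were the 2 highest of all 14 rats, and the other 3 lay within the range of the cirrhosis rats. The mean was 3.49 ± 2.66 FPM (n = 4) in control, 2.15 ± 1.49 (n = 5) in cirrhosis and 6.21 ± 6.50 (n = 5) with eplerenone. With eplerenone against cirrhosis the log2 fold change was 1.52 (SE 0.75, 95% interval -0.08 to 3.12), the largest of the 9 in that comparison, with an FDR of 0.358 in edgeR and 0.255 in DESeq2. In cirrhosis against control it was -0.69 (SE 0.79, edgeR FDR 0.533).

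Prox1 (ENSRNOG00000003694, chromosome 13) encodes PROX1, which is also a defining factor of lymphatic endothelium. Levels in control rats 2 to 5 were 47.1, 68.3, 87.5 and 91.6 FPM. In cirrhosis the 5 rats were at 9.15, 41.3, 7.60, 30.3 and 42.9 FPM, and the eplerenone rats 79.2, 58.9, 34.8, 35.1 and 21.5 FPM. Every cirrhosis rat lay below every control, by a narrow gap between cirrhosis replicate 5 and control 2, and eplerenone rats 1 and 2 lay within the control range. The mean was 73.6 ± 20.4 FPM (n = 4) in control, 26.3 ± 17.0 (n = 5) in cirrhosis and 45.9 ± 23.0 (n = 5) with eplerenone. Prox1 fell in cirrhosis by 1.49 on the log2 scale (SE 0.48, 95% interval -2.51 to -0.46), with an FDR of 0.0423 in edgeR and 0.0126 in DESeq2. It was -1.72 with an edgeR FDR of 0.0212 at 4 rats per group.

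The call of Prox1 held in 7 of 14 fits that each left out 1 rat. It was lost without cirrhosis replicate 1, 3 or 4 (-1.24, -1.25 and -1.53), without control replicate 3, 4 or 5 (-1.53, -1.40 and -1.37) and without eplerenone replicate 4 (-1.49), and the edgeR FDR over all alternatives ran from 0.0196 to 0.106. With eplerenone against cirrhosis the difference was 0.80 (SE 0.46, 95% interval -0.17 to 1.78, edgeR FDR 0.401), and against control it was -0.68 (SE 0.48, edgeR FDR 0.471). Of 5 lymphatic endothelium markers, Ccl21, Mmrn1 and Pdpn rose in cirrhosis, while Lyve1 (-0.49, edgeR FDR 0.328) and Flt4 (0.06, edgeR FDR 0.888) were not called. Their sum was 66.5 to 96.6 FPM in control and 77.0 to 651 in cirrhosis, and Ccl21 alone averaged 320 FPM in cirrhosis. Their part in the level of Prox1 was not tested.

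Creb3l3 (ENSRNOG00000032202, chromosome 7) encodes CREBH. In the controls, replicates 2 to 5, it had 353, 474, 472 and 484 FPM. Cirrhosis rats showed 379, 208, 352, 244 and 332 FPM, and the eplerenone rats 431, 486, 167, 333 and 389 FPM. Controls 3, 4 and 5 lay within a narrow band above every cirrhosis rat, and control 2 lay among the cirrhosis rats. The mean was 446 ± 62.3 FPM (n = 4) in control, 303 ± 73.6 (n = 5) in cirrhosis and 361 ± 122 (n = 5) with eplerenone. The log2 fold change in cirrhosis was -0.56 (SE 0.27, 95% interval -1.14 to 0.02, edgeR FDR 0.150), and with eplerenone against cirrhosis 0.25 (SE 0.26, edgeR FDR 0.621).

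Atf5 (ENSRNOG00000020060, chromosome 1) encodes ATF5. Controls 2 to 5 expressed it at 438, 526, 856 and 794 FPM. Those with cirrhosis had 362, 280, 386, 245 and 726 FPM, and the eplerenone rats 193, 354, 524, 597 and 603 FPM. In all, 4 of 5 cirrhosis rats lay below every control, and again replicate 5 lay among the controls. The mean was 654 ± 203 FPM (n = 4) in control, 400 ± 191 (n = 5) in cirrhosis and 454 ± 177 (n = 5) with eplerenone. The log2 fold change in cirrhosis was -0.71 (SE 0.36, edgeR FDR 0.168), and without cirrhosis replicate 5 it was -1.04 with an edgeR FDR of 0.0301, at which Atf5 was called; the FDR ran from 0.0301 to 0.357 over all alternatives. With eplerenone against cirrhosis it was 0.18 (SE 0.35, edgeR FDR 0.803).

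Within the CCl4 rats, the eplerenone comparison was also made separately for each number that begins the animal label, a division added after the values were seen. Labels beginning with 15 were carried by 3 cirrhosis and 2 eplerenone rats, and labels beginning with 20 by 2 cirrhosis and 3 eplerenone rats, among them both libraries that stood apart. For prefix 15 the log2 fold change with eplerenone was 1.88 for Foxa1, 0.71 for Foxa2, -0.09 for Foxa3, 1.04 for Cebpa, 0.11 for Cebpb, 2.33 for Onecut1, 1.83 for Prox1, 0.55 for Creb3l3 and -0.33 for Atf5. For prefix 20, in the same order, it was -0.51, 0.04, 0.06, 0.09, -0.08, 0.13, -0.26, 0.04 and 0.24. No factor passed an edgeR FDR of 0.05 in either set or in the difference between the sets, where 0.147%, 0% and 0% of all protein coding genes did. In edgeR 3 factors had an unadjusted p below 0.05 for prefix 15, at FDRs of 0.09996 to 0.177. None had one for prefix 20, and 1 had one in the difference. The share of all protein coding genes below that p is not given here, so these counts have no background beside them. DESeq2 was not run on this division. The lowest FDR of a factor was 0.09996 for prefix 15, and in the difference it was 0.394.

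The prefix 20 values rest in part on the libraries that stood apart. Foxa1 in the 2 cirrhosis rats of that prefix was 3.64 FPM and, in replicate 5, 21.2 FPM, against 6.59 (replicate 3), 13.5 and 5.90 FPM with eplerenone. Without cirrhosis replicate 5 the 1 remaining cirrhosis rat lay below all 3 eplerenone rats, so the direction for Foxa1 turns. Onecut1 was at 0.41 and 2.62 FPM in these cirrhosis rats and 1.30 to 2.13 FPM with eplerenone, and Prox1 at 30.3 and 42.9 against 21.5 to 35.1 FPM.

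**Figure D4:**
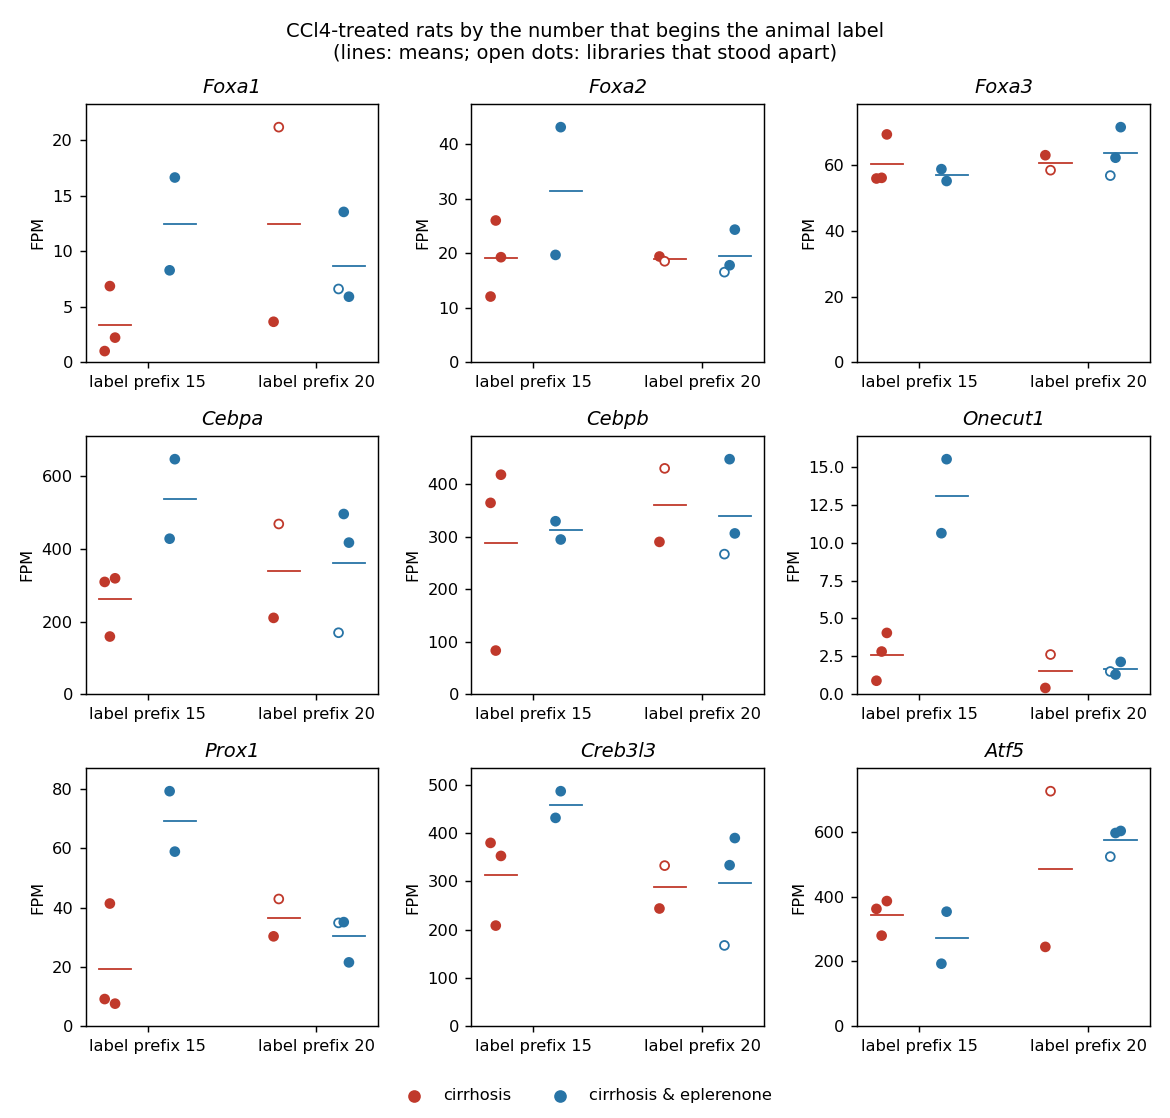
FPM of each factor in the 10 CCl4 rats (dots; lines are means; open dots are the 2 libraries that stood apart) by the number that begins the animal label and by treatment. Both open dots lie in prefix 20, and for Foxa1 the open cirrhosis dot at 21.2 FPM lies far above the other cirrhosis dot of that prefix at 3.64.

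Proteins that modify these factors were examined next. TRIB1 and TRIB2 are adaptors that bring C/EBP alpha to the ubiquitin ligase COP1 for degradation. In cirrhosis against control 3 of the 7 regulators were called, against 20.6% of all protein coding genes. Trib1 fell from 13.5 ± 8.07 FPM (n = 4) to 2.91 ± 1.68 (n = 5), a log2 fold change of -2.21 (SE 0.60, edgeR FDR 0.0204), with no overlap. Cop1 fell by 0.56 (SE 0.15, edgeR FDR 0.0193), from 54.9 ± 4.72 to 37.2 ± 4.96 FPM, and Trib2 rose by 1.43 (SE 0.33, edgeR FDR 0.00955), from 1.43 ± 0.19 to 3.84 ± 0.72 FPM. Genes of this degradation machinery were thus called in both directions, while Cebpa RNA was not called. The degradation acts on C/EBP alpha protein, which was not measured here. Trib1 lost its call without cirrhosis replicate 3 or control replicate 5, and Cop1 without control replicate 3 or 5. With eplerenone against control Trib2 was again called (1.43, SE 0.33, edgeR FDR 0.0219), a call lost without any 1 of the 4 controls or without eplerenone replicate 3. Mbtps1 and Mbtps2, which encode the site-1 and site-2 proteases that release CREBH, had log2 fold changes of -0.25 and 0.45 and were not called. The kinase genes Eif2ak3 and Eif2ak4, whose products lie upstream of ATF5 translation, had -0.12 and -0.34 and were not called.

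Among 10 tested relatives of the factors, Cebpd rose and Creb3l2 fell in cirrhosis. These 2 of 10 were near the 20.6% called over all protein coding genes. Cebpd, an acute phase C/EBP gene, went from 6.16 ± 1.35 FPM (n = 4) to 15.7 ± 7.21 (n = 5), a log2 fold change of 1.35 with an edgeR FDR of 0.0427. Creb3l2, a membrane-bound relative of Creb3l3, went from 9.98 ± 3.72 to 4.58 ± 2.38 FPM, a log2 fold change of -1.12 with an edgeR FDR of 0.0496. Both were near the threshold: among 14 fits that each left out 1 rat Cebpd was called in 5 and Creb3l2 in 4, with log2 fold changes of 1.13 to 1.54 and -1.45 to -0.87. Onecut2 stood at 4.34 ± 0.80 FPM in control and 2.02 ± 1.495 in cirrhosis (-1.11, SE 0.56, edgeR FDR 0.162). With 4 rats per group 4 of the 10 were called, Cebpd higher and Creb3l2, Onecut2 and the stress sensor Atf6 lower. Of all protein coding genes 34.6% were called there.

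Of 10 other liver factors tested, Hnf4a and Gata4 fell in cirrhosis and none rose. These 2 of 10 stand against 20.6% of all protein coding genes called and 6.72% called lower. Hnf4a, the nuclear receptor that keeps hepatocytes differentiated, went from 512 ± 137 FPM (n = 4) to 292 ± 58.1 (n = 5), a log2 fold change of -0.81 (SE 0.24, edgeR FDR 0.0290). Its call held in 9 of 14 fits that left out 1 rat, and was lost without cirrhosis replicate 3 or 4 or control replicate 3, 4 or 5. Gata4, a zinc finger factor that also marks liver endothelium and stellate cells, went from 26.3 ± 7.503 to 12.1 ± 2.01 FPM (-1.12, SE 0.19, edgeR FDR 0.00214), was called in all 14 of those fits, and its groups did not overlap. With 4 rats per group 4 of the 10 were called lower, Nr1h4, the bile acid receptor, and Tbx3 in addition. At that setting 34.6% of all protein coding genes were called.

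Genes described as targets were counted from lists set by textbook knowledge. The counts stand against 20.6% of all protein coding genes called in cirrhosis against control, and 34.6% at 4 rats per group. By DESeq2 alone 3847 of the 13628 were called in cirrhosis against control. The share with an unadjusted p below 0.05 is not given here. None of 7 tested FOXA targets was called in cirrhosis against control by both tools, with 2 unadjusted edgeR p-values below 0.05 and 2 called by DESeq2 alone. Ttr, the thyroid hormone carrier transthyretin, stood at 11982 ± 2091 FPM in control and 7336 ± 2783 in cirrhosis (-0.71, SE 0.29, edgeR FDR 0.0944). Alb, Pck1 and Ttr were called lower and Igfbp1 higher at 4 rats per group. None of 6 tested C/EBP alpha targets was called by either tool, with no unadjusted edgeR p below 0.05. Gys2, the liver glycogen synthase, had groups that did not overlap, 63.6 to 74.4 FPM in control and 35.6 to 47.3 in cirrhosis (-0.77, SE 0.38, edgeR FDR 0.150). It was the 1 of the 6 in that state, which held for 20.5% of all protein coding genes. Of this list Pck1 was called lower with 4 rats per group, and of the HNF6 targets below Ttr.

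Of 6 tested acute phase genes described as C/EBP beta targets, 2 were called in cirrhosis by both tools. All 6 had an unadjusted edgeR p below 0.05 and were called by DESeq2 alone, 4 of them higher and 2 lower. DESeq2 alone called 3847 of the 13628 protein coding genes in this comparison. In 5 the groups did not overlap, which held for 20.5% of all protein coding genes. Lbp, which binds lipopolysaccharide, and Orm1, an acute phase glycoprotein, rose in cirrhosis. Lbp went from 91.4 ± 35.8 FPM (n = 4) to 609 ± 271 (n = 5), a log2 fold change of 2.74 (SE 0.42, edgeR FDR 0.00119), and was at 327 ± 127 with eplerenone (1.84 against control, edgeR FDR 0.0159, a call lost without control replicate 2, 3 or 4). Orm1 went from 650 ± 92.0 to 1694 ± 931 FPM (1.38, SE 0.34, edgeR FDR 0.0133). Crp, also an acute phase gene, stood at 4105 ± 1159 FPM in control and 1128 ± 1053 in cirrhosis without overlap (-1.86, SE 0.67), but its edgeR FDR was 0.0605 and it was not called. Fgb was the other gene of the list that was lower (-0.52, SE 0.21), with an FDR of 0.0895 in edgeR and 0.0201 in DESeq2. With 4 rats per group A2m and Hp were called higher as well and Crp lower.

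Of 8 tested CREBH targets, 2 fell in cirrhosis and none rose, against 20.6% of all protein coding genes called and 6.72% called lower. Apoa4, an apolipoprotein of triglyceride-rich particles, went from 593 ± 147 FPM (n = 4) to 158 ± 67.7 (n = 5), a log2 fold change of -1.91 (SE 0.44, edgeR FDR 0.00913). Apcs, which encodes serum amyloid P, went from 1040 ± 45.1 to 535 ± 35.8 FPM (-0.96, SE 0.17, edgeR FDR 0.00216), and was at 614 ± 96.3 FPM with eplerenone (-0.76 against control, edgeR FDR 0.0163, a call lost without control replicate 5). Both were called in cirrhosis in all 14 fits that left out 1 rat, while Creb3l3 was called in none. With 4 rats per group 5 of the 8 were called lower, with Cidec, Crp and Fgf21 in addition.

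Of 6 tested ATF5 targets of the mitochondrial stress response, 1 fell in cirrhosis, the co-chaperone gene Dnaja3, from 133 ± 12.7 to 86.7 ± 14.98 FPM (-0.61, SE 0.18, edgeR FDR 0.0310). Its call held in 8 of 14 fits that left out 1 rat, and was lost without cirrhosis replicate 1, 3 or 4 or control replicate 2, 3 or 5. The chaperonin genes Hspd1 and Hspe1 had 0.21 and -0.10. None of 4 tested HNF6 targets was called by edgeR in cirrhosis, with 1 unadjusted edgeR p below 0.05 and 1 called by DESeq2 alone, and Ttr was again that gene. Cyp7a1, the rate-limiting enzyme of bile acid synthesis and also a gene that PROX1 is known to restrain, stood at 74.02 ± 29.4 FPM in control (n = 4) and 104 ± 30.8 in cirrhosis (n = 5; 0.49, SE 0.37, edgeR FDR 0.339). Between cirrhosis and cirrhosis & eplerenone no gene of any of these lists was called by both tools, and a list held at most 3 unadjusted edgeR p-values below 0.05.

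At 4 rats per group, a setting that widens the difference between the CCl4 groups by the choice of rats, this comparison had calls in these lists. Trib1, Pck1, Apoa4, Crp, Atf6 and Nr1h4 were then called higher with eplerenone, and Lbp and Cebpd lower. With all rats Trib1 differed by 2.13 on the log2 scale (SE 0.58), with an FDR of 0.312 in edgeR and 0.0332 in DESeq2. Over all protein coding genes, 2 were called with all rats and 1235 at 4 per group (9.22%).

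**Figure D5:**
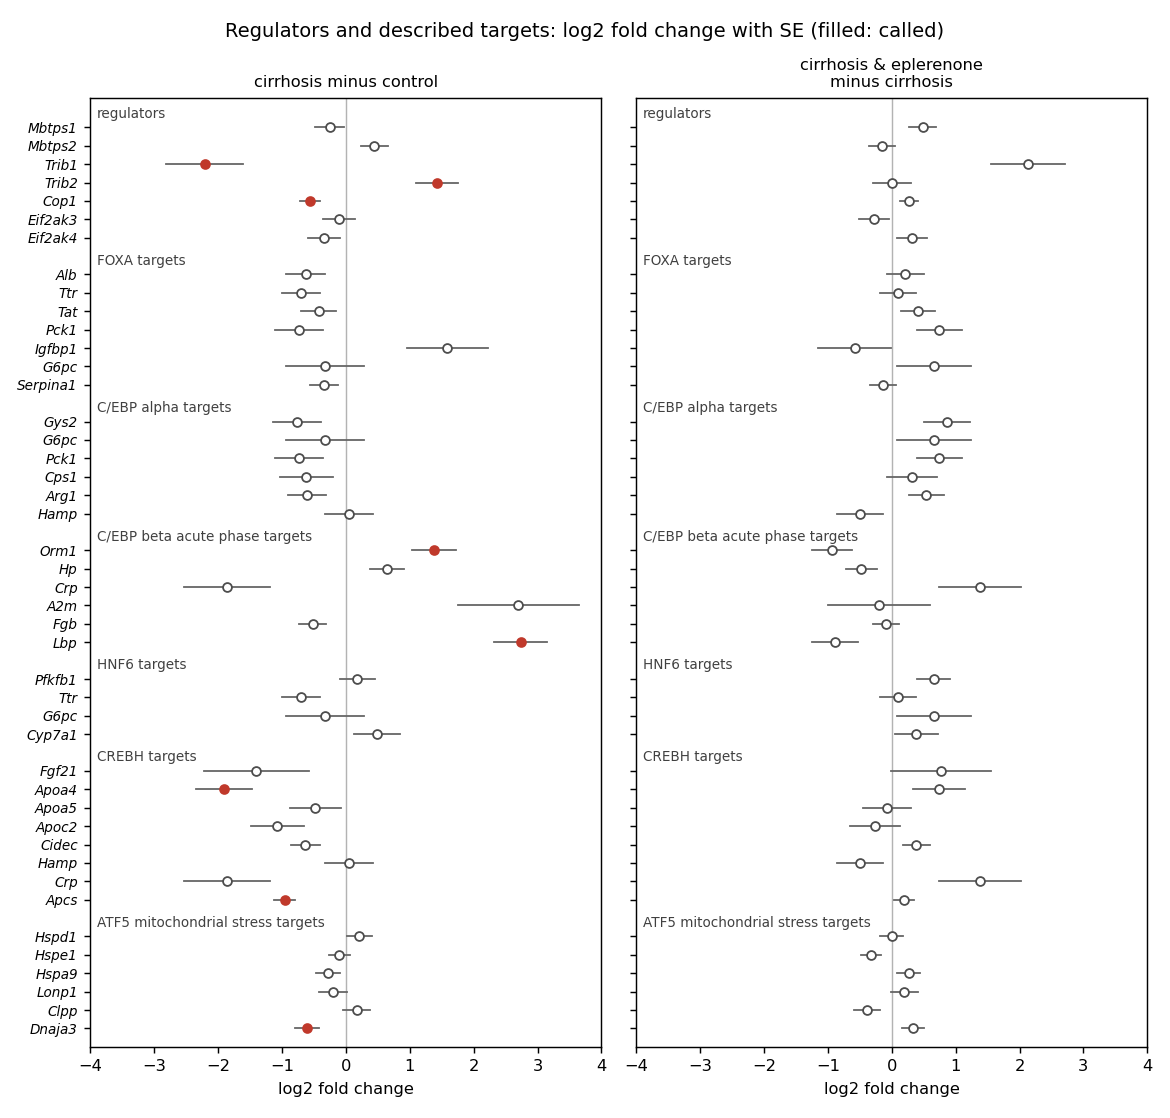
Log2 fold change (points) with SE (lines) of regulators and described targets of the 9 factors; filled points were called. In cirrhosis against control Trib1, Cop1, Apoa4, Apcs and Dnaja3 are filled below 0 and Trib2, Orm1 and Lbp above 0; no point is filled in the eplerenone comparison.

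The genes whose pattern over the 14 rats was nearest to each factor were found by the root mean square (RMS) of the difference in centred log2 FPM. For Prox1, whose own RMS about its mean was 1.06, the nearest were Lgr4 (0.267) and F5 (0.296). For Foxa1 (1.34) they were Helz2 (0.379) and Sowahb (0.448), and for Foxa2 (0.753) Rnd3 (0.389) and Nfyb (0.438). For Foxa3, which varied least (0.280), they were Naglu (0.123) and Maged1 (0.140). For Creb3l3 (0.457) Slc66a2 was nearest (0.169), and for Cebpa (0.565) the nearest were Tmbim6 (0.290) and Cyp2b3 (0.292). For Onecut1 (1.29) the nearest were farther off, LOC103694328 at 0.708 and Nfia at 0.731. Cebpb (0.707) had Zfp385a (0.462) and Dnah8 (0.474), and Atf5 (0.624) had LOC500124 (0.282) and AABR07063279.1 (0.317).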

How the data were processed

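Liver RNA of 14 rats was analysed. The authors deposited raw read counts per gene, after mapping to rn6 with HISAT2 2.1.0 and exon counting by featureCounts, in which a read with more than 1 mapping position adds to every one of them. Strand use is not given in the sources used here, so overlapping and antisense genes are uncertain. In R 4.3.3 the counts were filtered with filterByExpr (minimum count 10), which kept 14417 genes, scaled by TMM and fitted over the 3 groups in 1 model with edgeR 4.0.16 (quasi-likelihood test) and DESeq2 1.42.0; p-values were Benjamini-Hochberg adjusted over all genes tested. Within-rat ratios (0.5 counts added) were tested by two-sided exact permutation (scipy 1.17.1). Scripts were tested on simulated data. The factors, the gene lists and the tests were chosen with earlier results of these data known. The rule for named genes took all 9 factors, the listed genes, and for each factor the 2 protein coding genes nearest in centred log2 FPM (prior count 2). A gene that this rule includes is left unreported. Alternatives were DESeq2 alone, RLE and total-count scaling, other filters, the replicate number or label prefix as a term, 4 rats per group and each rat left out. Replicates are separate rats by their labels. Same-numbered rats of different groups deviated together in 3 of 13 pairs (correlation over 0.1; range -0.33 to 0.19), so the numbers were not taken to pair rats.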

Additional observations from a re-analysis of the deposited data

Results flagged for a closer look

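Of 27 groups of a factor examined (9 factors in 3 groups), 2 held a rat whose distance from its nearest neighbour exceeded Dixon's 95% critical value, against about 1 in 20 by chance. Cebpb stood at 313 FPM in control replicate 3, with a gap of 0.926 of the control range. Creb3l3 stood at 353 FPM in control replicate 2, with a gap of 0.903. Both rats remained in all comparisons.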

How the results depend on the processing

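In cirrhosis against control the count of called factors was 3. It was 1 with total counts (Foxa3), 5 at 4 rats per group, and 0 to 5 over the 14 fits that each left out 1 rat. The count over all protein coding genes moved too. From 2802 it went to 2707 with total counts, 4634 at 4 rats per group, and 1317 to 4415 over the 14 fits. Of the called factors, Foxa2 (-1.03) and Prox1 (-1.16) lost their calls with total counts, and Prox1 also with 10 counts required in every sample (-1.43, edgeR FDR 0.0513) and with the replicate block (-1.66, edgeR FDR 0.0635). Against cirrhosis & eplerenone, control gave 0 called factors; DESeq2 alone gave 1, total counts 1 and leaving out 1 rat 0 to 2 (Foxa2 at -1.29 and Foxa3 at 0.54 without eplerenone replicate 2). Between the CCl4 groups 0 factors were called, 1 at 4 rats per group and 0 in each of the 14 fits with 1 rat left out. Some values that were not called changed sign. Cebpa in cirrhosis became 0.0347 with total counts. With eplerenone against cirrhosis, Foxa3 became -0.0114 with DESeq2 or RLE, -0.0104 with 10 counts in every sample, -0.0140 with the label prefix as a term and -0.0859 within prefix 15, and ran from -0.05695 to 0.0588 with 1 rat left out. Cebpb ran from -0.19 to 0.19 and was -0.0819 within prefix 20. Atf5 became -0.0412 with the prefix term and -0.33 within prefix 15. Within prefix 20 Foxa1 was -0.51 and Prox1 -0.26. The cause of these changes was not tested. Onecut1 has no value with 10 counts in every sample, since it fell under that filter. No within-rat ratio changed its call.

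Counts over all protein coding genes in the order of the 3 comparisons of the text were 2802, 2 and 726; they were 4634, 1235 and 662 at 4 rats per group, 3847, 67 and 1476 with DESeq2 alone, and 1688, 0 and 260 with the replicate block. With total counts they were 2 for eplerenone against cirrhosis and 1123 for eplerenone against control. Over the 14 fits that each left out 1 rat these ran from 0 to 25 and from 208 to 1235. Group sizes of 4 and 5 and the low reads of Onecut1 limit what could be called. Label prefix and CCl4 exposure cannot be told apart.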
